A study of Drosophila melanogaster with 58 samples.

Results

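The genes described here are 5 Drosophila melanogaster regulators of neuronal differentiation that are active across most of the nervous system: elav, fne and Rbp9, which form the ELAV family of RNA-binding proteins, and the zinc finger genes nerfin-1 and scrt. Probes were chosen by the gene symbol of the platform annotation. Of the 5 genes, 4 had a probe, with 1 probe each for elav (CG4262), fne (CG4396) and nerfin-1 (CG13906) and 2 for Rbp9 (CG3151), which makes 5 of the 23808 probes and 4 of the 11663 named genes. No probe carried scrt (CG1130) by symbol or by Entrez identifier, so scrt was not analysed here.

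ELAV proteins are relatives of the vertebrate Hu proteins and bind U-rich stretches in RNA. The protein of elav is the standard marker of postmitotic neurons in the fly and directs neuron-specific splicing and the use of distal polyadenylation sites. The protein of fne, a neuronal paralogue, can take over nuclear functions of elav, and Rbp9 acts in the later nervous system and in the female germ line. Nerfin-1 is transcribed in neural precursors and newborn neurons, where its protein is needed for axon guidance and, in larval neurons, for keeping the differentiated state. Scrt is a Snail-type zinc finger protein that promotes neuronal fate.

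The study measured transcripts of whole embryos on 2-colour arrays, comparing embryos in which gcm was forced on or missing; gcm encodes a transcription factor that switches neural cells to glial fate. For the gain of function, embryos of the MZ1060 Gal4 line crossed to UAS-gcm stock B5446 were set against equal amounts of mRNA of both parental lines, at stages 9 to 16 (33 arrays, 5 at stage 14 and 4 at each other stage). In the loss-of-function experiment, homozygous gcmN7-4 embryos, sorted by the absence of GFP, were set against OregonR embryos treated alike, at stages 10 to 14 and 16 (25 arrays, 5 at stage 10 and 4 at each other stage). The GFP came from the balancer of the mutant stock, Kr-GFP up to stage 13 and Ubi-GFP from stage 14 on. Eggs were laid at 25°C in both experiments and developed at 29°C or 18°C, and the design text calls the repetitions of a stage independent experiments. The sources used here do not say which cells MZ1060 drives. The gain-of-function wild type carries the driver in one parent and the transgene in the other, while OregonR carries neither.

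Every value below is a log2 ratio of perturbed over wild-type RNA on one array, after centring each array on its median. Negative values mean less RNA in the perturbed embryos, and the deposited ratios give no intensities, so the level of a transcript cannot be stated. In RNA of whole embryos, fewer cells of a type and less RNA per cell cannot be told apart. Tests are limma moderated tests over all 58 arrays, two-sided, with Benjamini-Hochberg adjustment over all probes tested in a comparison, and a gene is said to rise or fall only where its adjusted p is under 0.05.

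A gain-of-function array measured 11991 to 23103 probes and a loss-of-function array 10822 to 23253. Over 40% of the probes were missing on 3 arrays, of which 2 were gain-of-function arrays (stage 9 replicate 1 and stage 14 replicate 2) and 1 was a mutant array (stage 11 replicate 4). Averaged over the stages, the manipulated gene followed its labels, with gcm higher in embryos with ectopic gcm on 31 of 33 arrays (1.35 ± 0.10 SE, adjusted p = 8.42e-15) and lower in mutants on 23 of 25 (-0.95 ± 0.12, adjusted p = 1.03e-08). By stage, gcm did not pass with ectopic gcm at stage 9 (0.13 ± 0.29, lower on 2 of 4 arrays, adjusted p = 0.876) or stage 10 (0.92, adjusted p = 0.0548). In mutants it did not pass at stage 12 (-0.295, adjusted p = 0.66) or stage 13 (-0.63, adjusted p = 0.181). Replicate 4 of loss-of-function stage 12 correlated, before ratios were turned to one direction, with an array of its own dye orientation at 0.216 and with 2 arrays of the other orientation at 0.145 and -0.00257 (Spearman's rho across probes). Without it, the calls of the members in every comparison of averages and of late with early stages were as with it. RNA markers of maternal origin also moved with both perturbations. All 12 tested of 15 listed maternal genes rose with ectopic gcm (median 1.54) and 9 of 11 rose in mutants (median 0.84), beside medians of -0.01 and 0.00 over all probes tested. Of all probes, 14.1% were called higher with ectopic gcm. In mutants 27.6% of all probes were called, 13.8% lower.

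The probes differed in how well their repeat spots matched. The absolute gap between the repeat spots of a probe had a median of 0.11 log2 for elav over 58 arrays, 0.21 for fne over 56, 0.24 for the main Rbp9 probe over 54 and 0.36 for nerfin-1 over 56. Over all probes the median of this gap was 0.79, so these 4 probes repeated more closely than most. The second Rbp9 probe had a gap of 1.20 over the 19 arrays that measured both of its spots, and 35 arrays had a spot of it listed at exactly 0. Its ratios, measured on 27 gain-of-function and 15 loss-of-function arrays, had SDs of 2.68 and 2.20, and it was tested in none of the averages. Values for Rbp9 below are those of the main probe.

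**Figure D1:**
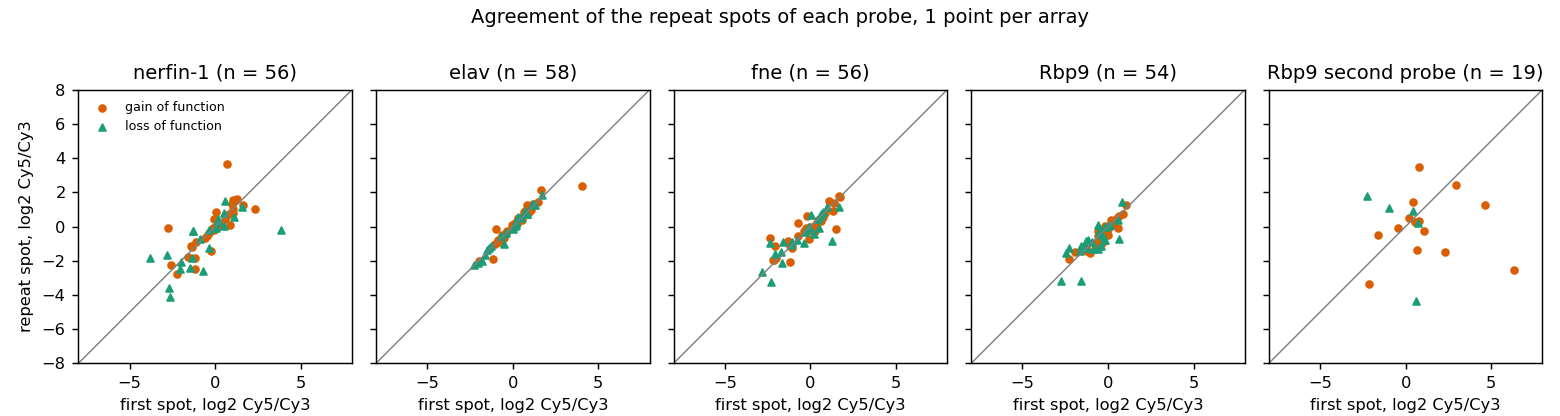
Repeat spots of each probe, with the first spot's log2 Cy5/Cy3 on the x axis and the repeat spot's on the y axis, 1 point per array that measured both, in gain-of-function (circles) and loss-of-function (triangles) arrays. Points of elav, fne, Rbp9 and nerfin-1 lie near the line of equality with median gaps of 0.11, 0.21, 0.24 and 0.36, while those of the second Rbp9 probe scatter (1.20).

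With ectopic gcm, nerfin-1, elav and fne fell and Rbp9 did not pass the test. Averaged over the 8 stages, nerfin-1 was 1.95-fold lower than in the parental pool, elav 1.58-fold lower and fne 1.48-fold lower. Of the 4 tested members, 3 fell and none rose, with a median of -0.61, beside 27.8% of 14780 probes called, 13.6% lower and 14.1% higher.

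The average of nerfin-1 was -0.96 ± 0.10 (SE, n = 33 arrays, lower on 33, limma adjusted p = 2.96e-10), the 13th lowest of the 14780 probes tested. Its array values ran from -1.78 to -0.26. At stage 9 the 4 arrays had -0.77, -1.71, -0.83 and -1.10, at stage 10 they had -1.31, -0.26, -0.46 and -0.35, and at stage 11 they had -0.54, -0.42, -0.89 and -1.41. Every one of these early arrays lay below 0, with the widest spread at stage 10. At stage 12 the values were -0.53, -0.79, -0.90 and -0.80, and at stage 13 they were -1.09, -0.85, -1.78 and -1.04. The 5 arrays of stage 14 lay close together, at -1.06, -1.19, -1.01, -1.13 and -0.99. At stage 15 the values were -0.86, -0.97, -1.33 and -0.86, and at stage 16 they were -0.67, -1.20, -1.53 and -1.0. No array of any stage reached 0, and nerfin-1 was the only member of which this held at 8 of 8 stages.

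By fitted value the stages of nerfin-1 ran 13 (-1.19), 9 (-1.10), 16 (-1.10), 14 (-1.09), 15 (-1.01), 11 (-0.81), 12 (-0.79) and 10 (-0.59), with every gap between neighbours below the standard error of a stage, which was 0.27 to 0.30. Taken singly, stages 9, 13 and 14 passed the test (limma adjusted p = 0.0112, 0.0133 and 0.0192), where 9.37%, 3.15% and 1.58% of all probes were called in either direction. At stages 10, 11 and 12, where this share was 4.35%, 2.9% and 2.06%, nerfin-1 did not pass (limma adjusted p = 0.35, 0.151 and 0.246). The call of stage 9 was lost without replicate 2 (-0.87) and that of stage 13 without replicate 3 (-1.01). That of stage 14 was lost without replicate 1, 2, 3 or 4 (-1.05 to -1.09). Stages 15 and 16 did not pass (adjusted p = 0.135 and 0.122), at stages where 0.481% and 0.222% of probes were called. At stage 9, where nerfin-1 passed, gcm itself did not (0.13, limma adjusted p = 0.876).

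Elav averaged -0.66 ± 0.09 with ectopic gcm (SE, n = 33, lower on 31, limma adjusted p = 4.83e-08) and was the 156th lowest probe. Stage 9 held the widest spread of the gene, with -3.34, -1.43, -0.66 and 0.12. The array at -3.34, replicate 1, was one of those lacking over 40% of the probes, and its repeat spots of elav were 4.02 and 2.40 as Cy5/Cy3. The fitted value of stage 9, -1.33, passed the test (adjusted p = 0.000385), and without that array it was -0.72 and did not (adjusted p = 0.0763). Gcm itself did not pass at that stage (0.13).

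At stage 10 elav had -1.21, -0.42, -0.17 and -0.42, and at stage 11 it had -0.54, -0.67, -0.69 and -0.26. At stage 12 the values were -0.03, -0.38, -0.89 and -0.37, and at stage 13 they were -1.13, -0.41, 0.19 and -0.38. Stage 13 thus held the other array above 0. Stage 14 gave -0.57, -0.78, -0.82, -0.26 and -0.53, stage 15 gave -0.80, -0.54, -0.87 and -0.37, and stage 16 gave -1.0, -1.16, -1.03 and -0.65. All arrays of 6 of the 8 stages lay below 0. By fitted value stage 9 (-1.33) and then stage 16 (-0.96) came lowest, each apart from the next by more than a standard error, and the other 6 stages lay between -0.64 and -0.29 with smaller gaps. Stage 16 did not pass (adjusted p = 0.101) but did without replicate 1 of stage 9 (adjusted p = 0.0143).

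Fne averaged -0.57 ± 0.10 (SE, n = 33, lower on 28, limma adjusted p = 5.85e-06), the 339th lowest probe. Its early arrays were split: 1.44, -0.93, -0.40 and -0.91 at stage 9, and 1.49, -0.22, 0.16 and 0.84 at stage 10. At stage 11 they were -0.38, 0.09, -1.49 and -0.80. The stage 9 array at 1.44, replicate 1, lacked 49.6% of the probes, and its first spot of fne was missing. From stage 12 on, 21 of 21 arrays lay below 0. These were -0.57, -0.47, -0.81 and -0.68 at stage 12, and -1.41, -0.84, -0.61 and -1.68 at stage 13. At stage 14 fne had -1.12, -0.69, -0.87, -0.81 and -0.81, and at stage 15 it had -0.76, -0.78, -1.0 and -0.56. Stage 16 gave -1.30, -0.40, -1.07 and -0.38. The fitted order ran from stage 13 (-1.13) through 14, 16, 15, 12 and 11 (-0.88 to -0.64), with gaps below a standard error. Stage 9 (-0.20) and stage 10 (0.57) followed, each set off from its neighbour by more than that. The place of stage 9 rested on replicate 1. Its fitted value ran from -0.73 to 0.09 when 1 array was left out, lowest without that replicate. At -0.73, stage 9 lies within the range of stages 11 to 16.

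Stages 13 and 14 of fne passed singly (limma adjusted p = 0.0103 and 0.0492). The stage 13 call was lost without replicate 1 (-1.0) or 4 (-0.99) of that stage, and the stage 14 call was lost in 40 of the 58 fits with 1 array left out. Late minus early stages, 13 to 16 minus 9 to 12, gave -0.65 ± 0.19 for fne (adjusted p = 0.0747), with a mean of -0.89 in the late stages (17 of 17 arrays lower) and -0.24 in the early ones (11 of 16 lower). The early mean includes replicate 1 of stage 9, described above. With 1 array left out, the difference for fne passed in only 4 of 58 fits, and adjusted p ran from 0.0285 to 0.146. These 4 were without replicate 2 or 4 of stage 9, replicate 2 of stage 10 or replicate 3 of stage 13 (adjusted p = 0.0285, 0.0406, 0.0332 and 0.0498). Neither nerfin-1 (late mean -1.10, early mean -0.82, adjusted p = 0.659) nor elav (-0.64 and -0.68, adjusted p = 0.969) passed. For Rbp9 the difference was -0.12 (adjusted p = 0.857), so 0 of 4 members were called, where 1.36% of all probes were. At an unadjusted p under 0.05, 1 of the 4 members, fne, passed, beside 12.4% of all probes.

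Rbp9 averaged -0.02 ± 0.09 with ectopic gcm (SE, n = 33, lower on 15, adjusted p = 0.919), with a 95% confidence interval from -0.19 to 0.15. Its stage values lay between -0.14 at stage 14 and 0.33 at stage 11, and no stage passed the test. The values of Rbp9 differed by dye orientation. Its mean was 0.26 ± 0.41 (SD, n = 18) where the RNA with ectopic gcm was in Cy3 and -0.30 ± 0.40 (n = 15) where it was in Cy5. The dye term of the model takes up this difference. For elav these means were -0.90 ± 0.70 and -0.42 ± 0.33, and for nerfin-1 they were -0.90 ± 0.35 and -1.03 ± 0.38, with nerfin-1 below 0 on every array of both orientations. On the 33 arrays, nerfin-1 lay below Rbp9 on 31, by 0.96 ± 0.49 on average (SD). Both ELAV paralogues that fell also lay below Rbp9 on most arrays, elav on 28 (-0.68 ± 0.79) and fne on 26 (-0.57 ± 0.81).

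**Figure D2:**
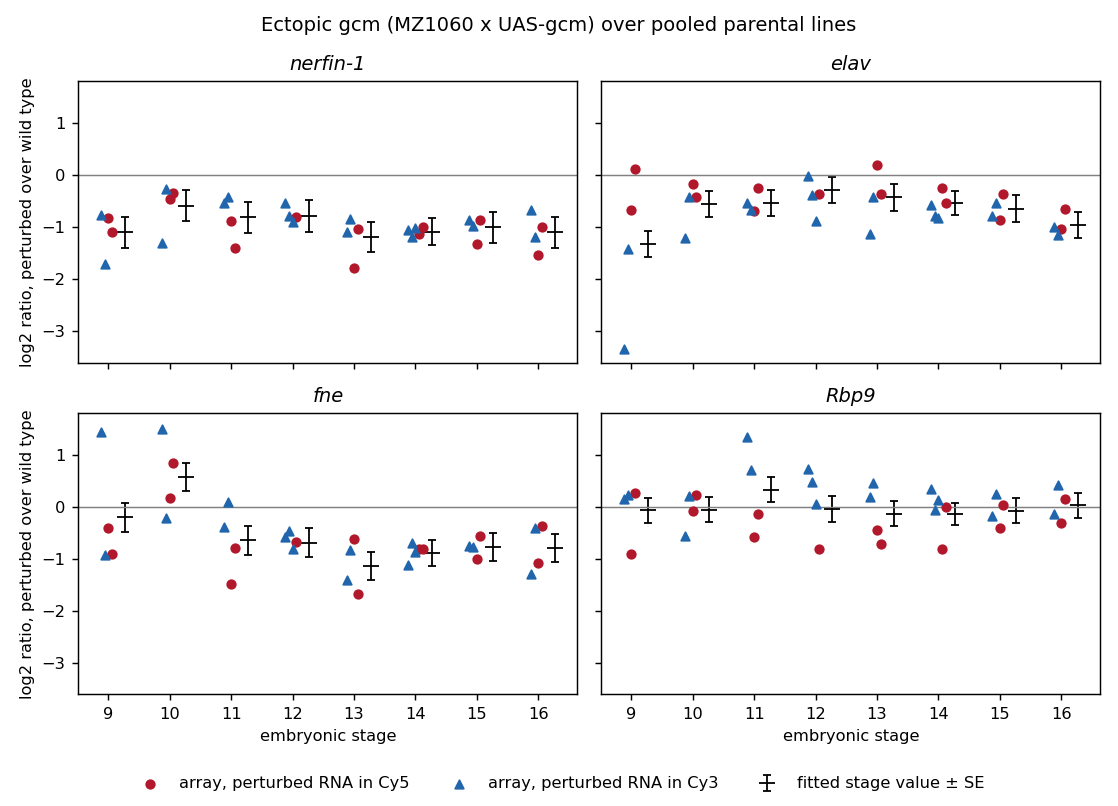
Log2 ratios of embryos with ectopic gcm over the parental pool (y axis) by embryonic stage (x axis) for nerfin-1, elav, fne and Rbp9, 1 point per array (circles, perturbed RNA in Cy5; triangles, in Cy3), with the fitted value of each stage and its SE. All 33 points of nerfin-1 lie below 0, fne lies below 0 on 21 of 21 arrays from stage 12 on, and the points of Rbp9 lie on both sides of 0 at every stage.

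The maternal markers were high on every gain-of-function array, with a mean of the list between 0.981 and 2.21. With that mean as a covariate, the fitted averages, which then stand for a list mean of 0 outside this range, were -0.95 for nerfin-1, -0.62 for elav and -0.63 for fne, and none passed (adjusted p = 0.0723, 0.188 and 0.221).

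In gcm mutants nerfin-1, elav and fne lay below 0 on nearly all arrays of stages 10 and 11 and above 0 on all arrays of stage 16. At stage 11 all 3 fell, nerfin-1 by 1.66, fne by 1.29 and elav by 1.14 on the log2 scale (limma adjusted p = 0.000125, 0.00127 and 0.0019). These were 3 of 4 members, beside 8.67% of 19023 probes called, 5.79% lower and 2.89% higher, and the median of the members was -1.21, beside -0.01 over all probes. Muscle markers were low at the same stage. All 5 tested of 10 listed muscle genes had fitted values below 0 at stage 11 (-1.37 to -0.30, median -0.76), of which Tm2, a tropomyosin, passed, and the mean of the list was below 0 on 4 of 4 arrays (-1.26 to -0.19). Over the stages of the mutants the list mean was 0.35 at stage 10, -0.79 at stage 11, 0.76 at stage 12, -0.73 at stage 13, 0.75 at stage 14 and 0.45 at stage 16, and its part in the values of the members was not tested. No member passed at any other stage in the mutants, where the share of all probes called was 5.41% at stage 10, 7.32% at stage 12, 9.6% at stage 13, 2.55% at stage 14 and 3.58% at stage 16. At stages 11 and 16 the mutant RNA was in Cy5 on 3 of 4 arrays. The fitted values take up a dye difference, while the signs of single arrays do not.

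At stage 10 nerfin-1 had 1.37, -0.88, -1.85, -1.15 and -1.31 in the mutants, and at stage 11 it had -1.49, -2.64, -0.93 and -2.06. One array of stage 10, replicate 1, stood far above the rest. Stage 10 did not pass (-0.81 ± 0.27 SE, adjusted p = 0.0637), and without that array it did (-1.30, adjusted p = 0.00041). At stage 12 nerfin-1 had -0.25, -0.51, -0.98 and -0.65, and at stage 13 it had 0.30, -1.27, -0.84 and 0.01. At stage 14 the values were 1.82, -0.01, 0.24 and 0.22, and at stage 16 they were 1.06, 0.88, 0.06 and 0.28. The arrays of stage 12 were all below 0, those of stages 13 and 14 lay on both sides, and those of stage 16 were all above. The fitted value at stage 16 was 0.69 ± 0.30 and did not pass (adjusted p = 0.245).

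Elav had -1.10, -0.66, -0.78, -0.72 and -0.54 at stage 10, and -0.93, -1.16, -0.78 and -1.17 at stage 11. All 9 arrays were below 0, and the fitted value of stage 10, -0.71, narrowly missed the threshold (adjusted p = 0.0535). At stage 12 elav had -0.14, -0.18, 1.08 and 0.60, at stage 13 it had 0.12, -0.51, -0.11 and 1.14, and at stage 14 it had -0.26, -0.14, 0.28 and 1.21. Both dye orientations are present at each of these stages, and the arrays near or above 1 all had the mutant RNA in Cy5. At stage 16 the values were 0.48, 0.90, 0.48 and 0.55, all above 0 and close together, with a fitted value of 0.47 ± 0.26 (adjusted p = 0.408).

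Fne had -0.51, -0.08, -0.38, -1.58 and -0.46 at stage 10, and -1.55, -0.94, -1.17 and -1.65 at stage 11, again below 0 on 9 of 9 arrays. At stage 12 its arrays straddled 0, with 0.04, 0.41, -0.29 and -0.22. Stage 13 gave -0.34, -1.10, -1.53 and 0.13. Its fitted value there, -0.71, did not pass (adjusted p = 0.0975) but did without replicate 4 (-1.04, adjusted p = 0.0162). At stage 14 fne had -0.02, 0.02, -0.02 and 0.52, and at stage 16 it had 0.72, 0.74, 0.51 and 0.34. At stage 16 all arrays were above 0, as for nerfin-1 and elav, with a fitted value of 0.62 ± 0.28 (adjusted p = 0.27). Nerfin-1, elav and fne each had stage 11 as their lowest stage in the mutants, apart from the next by more than a standard error. Stage 16 came highest for all 3, but by less than a standard error for nerfin-1 (0.12 above stage 14) and elav (0.13 above stage 12), and by more for fne (0.49 above stage 14).

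Rbp9 had no common sign in the mutants, with stage values from -0.38 at stage 13 to 0.53 at stage 14. At stage 11 its arrays were 0.29, -0.23, -1.10 and -0.26, and its fitted value was -0.12 ± 0.25 (adjusted p = 0.863). Its value at stage 13 passed without replicate 4 of that stage (-0.84, adjusted p = 0.019). Its mean was 0.55 ± 0.48 (SD, n = 11) where the mutant RNA was in Cy3 and -0.32 ± 0.58 (n = 14) where it was in Cy5, and elav differed by dye in the other direction, with -0.37 ± 0.47 and 0.12 ± 0.86.

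**Figure D3:**
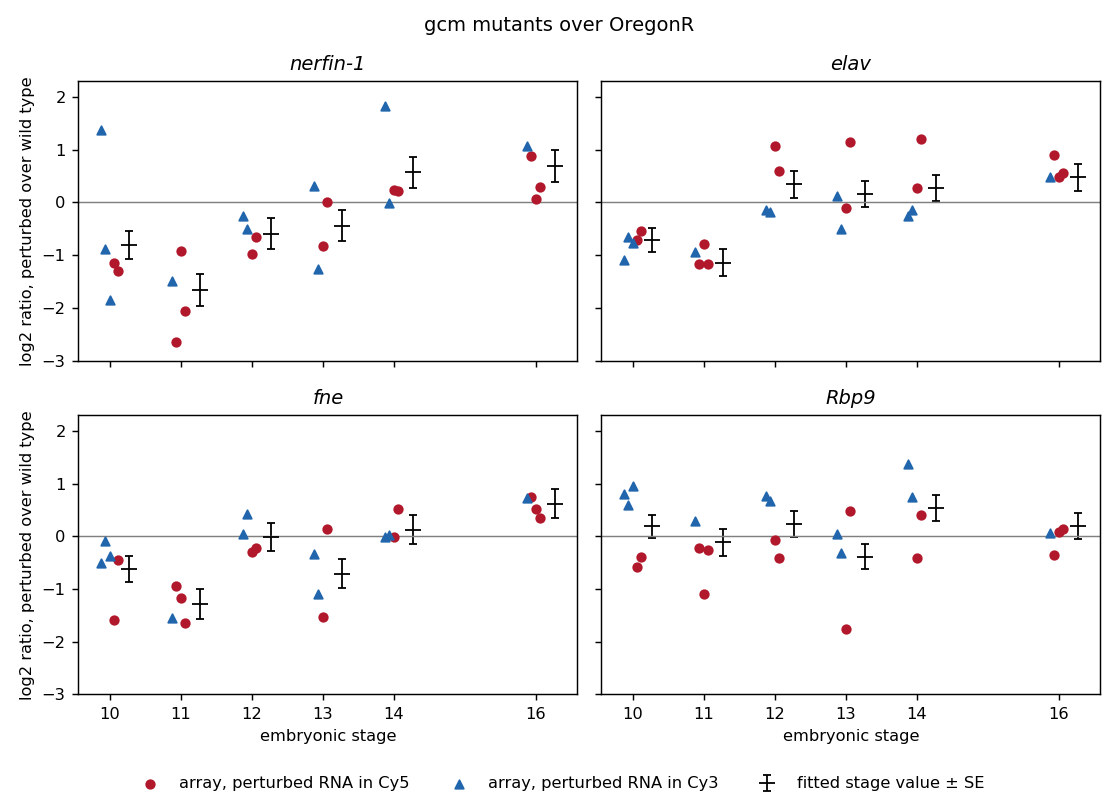
Log2 ratios of gcm mutants over OregonR (y axis) by embryonic stage (x axis) for nerfin-1, elav, fne and Rbp9, 1 point per array (circles, perturbed RNA in Cy5; triangles, in Cy3), with the fitted value of each stage and its SE. At stages 10 and 11 elav and fne lie below 0 on 9 of 9 arrays and nerfin-1 on 8 of 9, and at stage 16 all 4 arrays of each of these genes lie above 0.

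The shift over time in the mutants was tested as stages 13, 14 and 16 minus stages 10 to 12. It was positive and passed for nerfin-1, at 1.29 ± 0.24 (SE, limma adjusted p = 0.000327), with a late mean of 0.27 (9 of 12 arrays above 0) and an early mean of -1.02 (12 of 13 arrays below 0). It also passed for elav, at 0.80 ± 0.20 (adjusted p = 0.009), with a late mean of 0.30 (8 of 12 above 0) and an early mean of -0.50 (11 of 13 below 0). For fne it was 0.65 ± 0.22 (adjusted p = 0.0693), with means of 0.01 and -0.64, and for Rbp9 it was 0.01 ± 0.20 (adjusted p = 0.992). Thus 2 of 4 members were called, beside 5.56% of 15025 probes in either direction and 3.96% higher, with medians of 0.73 for the members and 0.06 for all probes.

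The balancer used to sort homozygotes changed between stages 13 and 14. Within the Kr-GFP stages, stage 13 minus stages 10 to 12 gave 0.58 for nerfin-1 (adjusted p = 0.395), 0.66 for elav (adjusted p = 0.2) and -0.07 for fne, and none passed. The step to stages 14 and 16 coincides with the change of balancer, and the effects of stage and balancer there cannot be told apart. Without stage 11 the difference for elav was 0.47 and did not pass (adjusted p = 0.362), while nerfin-1 still did. With 1 array left out, the difference for fne passed in only 5 of 58 fits, and adjusted p ran up to 0.13. These 5 were without replicate 1 of gain-of-function stage 9, or without replicate 2 or 3 of stage 11 or replicate 2 or 3 of stage 13 in the mutants (adjusted p from 0.0314 to 0.0463). The mean of the maternal list was 1.55, 1.06, 0.91, 1.71 and 1.03 at stages 10 to 14 and 0.32 at stage 16 in the mutants. With it as a covariate the difference was 1.29 for nerfin-1 (adjusted p = 0.00032) and 0.80 for elav (adjusted p = 0.00909).

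Averaged over the 6 stages of the mutants, nerfin-1 fell by 0.38 on the log2 scale (SE 0.12, n = 25, lower on 15, adjusted p = 0.0146) and fne by 0.31 (SE 0.11, lower on 16, adjusted p = 0.0284). Elav had -0.10 ± 0.10 (lower on 15, adjusted p = 0.527) and Rbp9 0.11 ± 0.10 (lower on 11, adjusted p = 0.479). The members called lower were 2 of 4, with a median of -0.21, beside 27.6% of 15025 probes called, 13.8% lower. The call of fne was lost without replicate 2 (-0.28, adjusted p = 0.0579) or 3 (-0.28, adjusted p = 0.0562) of stage 13, and neither gene passed on arrays that were not centred (nerfin-1 -0.22, fne -0.16), where the median of all probes was 0.16. Neither passed with exact zeros kept (adjusted p = 0.0551 for nerfin-1 and 0.0948 for fne) or with the maternal covariate (0.384 and 0.352), fne did not pass on scaled arrays (0.0746) and nerfin-1 did not on the mutant arrays alone (0.112).

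Over the 6 stages in both experiments, gain minus loss of function compared how far the genes moved under each. Nerfin-1 was lower with ectopic gcm (mean -0.93) than in mutants (-0.38), by -0.55 ± 0.17 (SE, n = 50, adjusted p = 0.0163), and elav likewise (-0.55 and -0.10), by -0.45 ± 0.14 (adjusted p = 0.021). The difference did not pass for fne (-0.60 and -0.31, difference -0.28 with a 95% interval from -0.60 to 0.03, adjusted p = 0.234) or Rbp9 (-0.11, interval from -0.39 to 0.17, adjusted p = 0.661). So 2 of 4 members were called lower, beside 17.4% of 13264 probes called and 6.45% lower. The wild types differed between the experiments, so a difference of the wild types is part of this value. Neither call held on arrays that were not centred (adjusted p = 0.219 for elav and 0.183 for nerfin-1) or with exact zeros kept (0.0546 and 0.0536), and that of elav did not with the maternal covariate (0.0674).

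**Figure D4:**
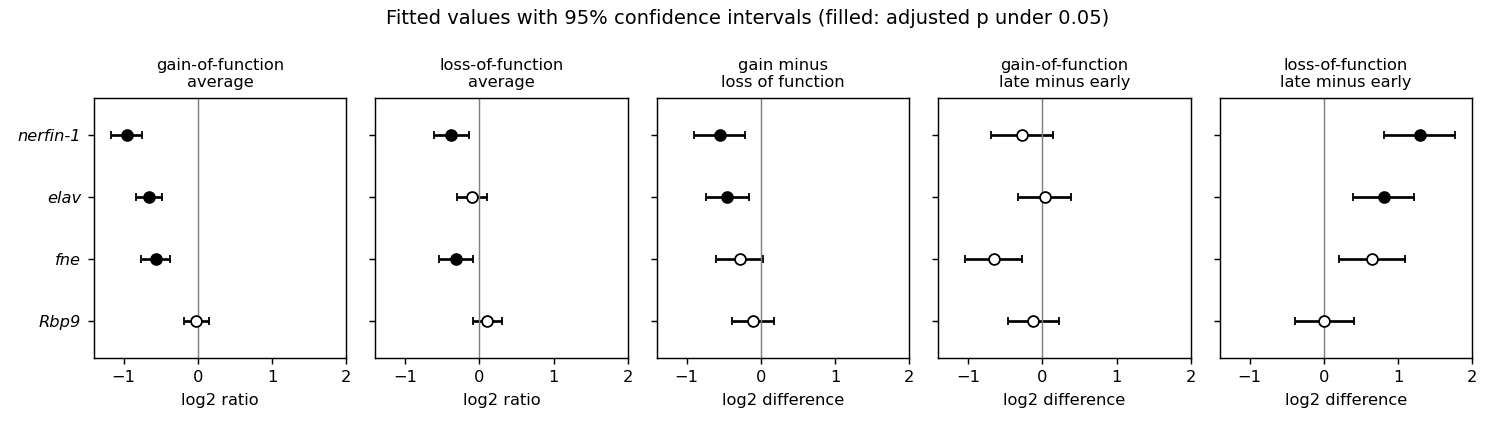
Fitted values of nerfin-1, elav, fne and Rbp9 with 95% confidence intervals in 5 comparisons (x axes, log2 ratio or difference of log2 ratios). Filled points have an adjusted p under 0.05: nerfin-1, elav and fne in the gain-of-function average, nerfin-1 and fne in the loss-of-function average, and nerfin-1 and elav in gain minus loss of function and in late minus early stages of the mutants.

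Across the 14 groups of experiment and stage, the fitted ratios of nerfin-1 and elav correlated at r = 0.81, nerfin-1 and fne at 0.77, Rbp9 and nerfin-1 at 0.55, fne and elav at 0.50, fne and Rbp9 at 0.46 and elav and Rbp9 at 0.34. These are descriptions over 14 points that share arrays between genes. Nerfin-1 ranked 21st among 7885 genes by likeness to fne and 190th by likeness to elav. The ELAV paralogues ranked lower. By likeness to elav, fne was 1433rd and Rbp9 2207th, and by likeness to fne, elav was 565th and Rbp9 749th. The 3 genes most like each member by this measure were bowl (0.947), CG16743 (0.947) and CG13675 (0.943) for elav, and Vmat (0.936), Gad1 (0.885) and CG13928 (0.876) for fne. Vmat encodes the vesicular monoamine transporter and Gad1 the enzyme that makes GABA. For nerfin-1 they were CG13048 (0.939), Vajk1 (0.923) and chinmo (0.921), the last a zinc finger gene of temporal identity in neurons, and for Rbp9 they were up (0.837), which encodes a muscle troponin, pxb (0.832) and ZnT35C (0.830).

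Scrt belongs to the Snail superfamily, of which 5 genes were listed and all were tested. With ectopic gcm, where 13.6% of all probes were called lower and 14.1% higher, 4 of these 5 genes fell and none rose (median -0.59). These were wor (-0.73 ± 0.07 SE), esg (-0.60 ± 0.13), Kah (-0.59 ± 0.15) and sna (-0.40 ± 0.07), of which wor, esg and sna act redundantly in neuroblasts. The fifth, CG12605, had -0.22 (adjusted p = 0.339). In mutants 1 of the 5 fell, Kah (-0.62 ± 0.17), and 1 rose, sna (0.40 ± 0.08), with a median of -0.07. Of all probes in the mutants, 27.6% were called, 13.8% lower.

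Genes linked to nerfin-1 went in both directions. The relative nerfin-2 had 0.09 ± 0.16 with ectopic gcm (adjusted p = 0.759) and -0.08 ± 0.19 in mutants (adjusted p = 0.816). Of 7 listed genes, made up of nerfin-2 and axon guidance genes that depend on nerfin-1, 5 were tested. With ectopic gcm 1 fell, drl (-0.60 ± 0.06), a receptor that steers commissural axons, and 2 rose, Galphao (0.60 ± 0.18), a G protein subunit, and Lar (0.42 ± 0.12), a receptor phosphatase of motor axons. In mutants Lar rose (0.48 ± 0.13) and none fell. The medians were 0.09 with ectopic gcm and -0.002 in mutants, in averages where 27.8% and 27.6% of all probes were called.

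Among transcripts whose splicing or 3′ ends ELAV controls, 5 of 7 listed were tested, and an array of this kind does not resolve isoforms. Ewg (-0.43 ± 0.14) and Dscam1 (-0.42 ± 0.07) fell with ectopic gcm and brat (0.18 ± 0.07) rose (median -0.18). In mutants ewg fell (-0.56 ± 0.16), and brat (0.96 ± 0.08) and Dscam1 (0.24 ± 0.08) rose (median -0.09). Ewg encodes a neuronal transcription factor, Dscam1 a cell surface protein of neurite self-recognition and brat a translational repressor. Of 9 other neuronal RNA-binding proteins listed, 6 were tested. With ectopic gcm Imp fell (-0.37 ± 0.07) and orb2 rose (0.43 ± 0.09), and in mutants orb2 (0.62 ± 0.11), Imp (0.48 ± 0.08) and cpo (0.25 ± 0.06) rose. Beside both lists, 27.8% of all probes were called with ectopic gcm and 27.6% in mutants.

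Genes of differentiated neurons were called about as often as all probes, of which 27.8% were called with ectopic gcm and 27.6% in mutants. Of 20 listed, 11 were tested with ectopic gcm, where 2 fell, CadN (-0.59 ± 0.07) and fra (-0.31 ± 0.06), and 1 rose, Csp (0.34 ± 0.06), with a median of -0.02. In mutants 1 of 10 fell, fra (-0.28 ± 0.07), and 2 rose, para (0.31 ± 0.12) and CadN (0.23 ± 0.08), with a median of 0.03. CadN is a neuronal cadherin, fra a netrin receptor, Csp a synaptic vesicle protein and para the voltage-gated sodium channel. The mean of the list stayed between -0.26 and 0.10 over the stages with ectopic gcm and between -0.20 and 0.23 in mutants.

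With ectopic gcm, where 13.6% of all probes were called lower and 14.1% higher, 11 of 16 listed genes of neural precursors fell and 1, brat, rose (median -0.45). The lowest were cas (-0.91 ± 0.10), a factor of late neuroblasts, dpn (-0.85 ± 0.09), a neuroblast repressor, wor, and insc (-0.71 ± 0.10), which orients the neuroblast spindle. In mutants 2 of 15 fell, cas (-0.82 ± 0.11) and dpn (-0.40 ± 0.10), and 3 rose, brat, l(1)sc (0.54 ± 0.17) and hb (0.44 ± 0.08), with a median of 0.13. Of all probes in the mutants, 27.6% were called, 13.8% lower. The precursor list overlaps with others: wor is also counted among the Snail genes and brat among the transcripts that ELAV controls. From early to late stages of the mutants, 7 of 15 precursor genes rose and none fell (median 0.45), the direction in which nerfin-1 and elav moved. Of all probes, 5.56% were called in that comparison and 3.96% were higher (median 0.06). The change of balancer falls within the late stages. Glial switch genes and muscle markers served as markers of other cell types. Of 4 tested glial genes, which include the manipulated gcm itself, 3 rose with ectopic gcm (gcm, repo and loco) and 3 fell in mutants (gcm, gcm2 and loco). The average of gcm2 in mutants was -0.59 ± 0.22, with 14 of 25 arrays lower (limma adjusted p = 0.0372). Its stage values there included 0.62 at stage 11 and -1.93 at stage 13, the only stage at which it passed. Repo was not called in mutants (0.01 ± 0.08, limma adjusted p = 0.949), nor was gcm2 with ectopic gcm (-0.04 ± 0.19, adjusted p = 0.914). Of 5 muscle genes, 1 fell with ectopic gcm, Tm2 (-0.47 ± 0.12), and none was called in the average of the mutants. At single stages of the mutants, picked out after their values were seen, Mlc2 rose at stage 10 (2.04 ± 0.51), and Tm2 fell at stage 11 (-1.37 ± 0.35) and, with up (-1.02 ± 0.31), at stage 13 (-1.17 ± 0.34). With ectopic gcm Tm2 fell at stages 9 (-1.68 ± 0.39) and 13 (-1.24 ± 0.34), and the list mean of a stage lay between -0.67 at stage 9 and 0.56 at stage 16.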

How the data were processed

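The deposited values are log2 Cy5/Cy3 ratios of single spots from 58 arrays, with base 2 read from the values and gene names from the platform annotation. Per the labels' design text, the authors scanned with ScanArray, quantified with GenePix and kept arrays whose repeat spots matched; background correction and normalization are not given in the sources used here. Exact zeros and fill values (log2 of 9 or more in size) were taken as missing, repeat spots were averaged, arrays were median-centred, and the labelled dyes gave the direction of each ratio, perturbed over wild type. Sequences of the members were not used here.

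Per probe, 1 least-squares model over all 58 arrays held 14 groups and a dye term for each experiment, with variances moderated by limma 3.58.1 (squeezeVar) in R 4.3.3 (version 1.17.8 of data.table). A probe was tested where each group of a comparison had at least 3 arrays and both orientations. Figures used Python 3.11.15 and matplotlib 3.10.9. The number of arrays limits the precision. On simulated data, 60 and 93 of 100 probes changed by 0.5 and 1 were recovered in the gain-of-function average (4.97% of calls false, 12223 probes), and 56 and 82 of 100 in the loss-of-function average (2.82% false). The simulated noise was normal and independent between probes and arrays, without a dye effect. A far smaller share of probes was changed than the 27.8% called in the real gain-of-function average. These rates may therefore not hold for the real arrays.

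All members were named, with gcm as the check, the largest called changes of each other list (up to 4 in each direction in an average) and the 3 genes most like each member. The members, lists and tests were chosen with earlier results of these data known. Alternatives were the centring, scaling, dye term, filters, zeros, spot pairs, print blocks, each experiment alone, a maternal covariate, the replicate block and each array left out.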

Additional observations from a re-analysis of the deposited data

Results flagged for a closer look

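Of 60 sets of 4 or 5 arrays of a stage, 1 array stood apart from the rest of its set in 7, where chance gives about 1 in 20. In the mutants these arrays were replicate 4 of stage 10 for fne (-1.58, with the nearest at -0.51), replicate 4 of stage 14 for fne (0.52, nearest 0.02), replicate 1 of stage 14 for nerfin-1 (1.82, nearest 0.24) and replicate 2 of stage 16 for elav (0.901, nearest 0.55) and for Rbp9 (-0.357, nearest 0.07). With ectopic gcm they were replicate 3 of stage 9 for Rbp9 (-0.902, nearest 0.14) and replicate 4 of stage 10 for the second Rbp9 probe (2.89, nearest -0.30). None of these arrays changed a call of the averages or of late minus early stages when left out.

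The ratio of mutants over OregonR differed between late and early stages for nerfin-1 (1.29) and elav (0.805), by the test of the difference itself. The balancer changed within the late stages, so effects of stage and balancer cannot be told apart in this difference. Within the Kr-GFP stages neither nerfin-1 (0.58, limma adjusted p = 0.395) nor elav (0.66, adjusted p = 0.2) passed. Without stage 11 the difference for elav was 0.47 and did not pass (adjusted p = 0.362).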

How the results depend on the processing

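Directions held for every call of a member in the averages, in late minus early stages and in gain minus loss of function under the alternatives run; calls were lost as follows. On arrays not centred, which shifts the median of all probes to 0.16 in the loss-of-function average, 0.64 in late minus early stages of the mutants and -0.10 in gain minus loss, members called were 0 in the loss-of-function average, 0 in gain minus loss and 0 (against 6) over the gain-of-function stages; probes called were 1854, 2105, 1, 2654 and 464 in the gain and loss averages, gain and loss late minus early and gain minus loss, and 497 and 2802 over the gain and loss stages. With arrays scaled to one spread, members called were 1 in the loss average, 1 in gain late minus early, 15 and 5 over the gain and loss stages, and probes 434 in gain late minus early and 8964 over the gain stages. With only probes measured on every array they were 1, 10 and 7 in gain late minus early and over the gain and loss stages (419 probes in the first). With zeros kept they were 0 in the loss average and 0 in gain minus loss (67 probes in gain late minus early). With only spot pairs of a low SD, elav alone of the members could be tested in the averages: 1, 0, 1 and 1 were called in the gain and loss averages, loss late minus early and gain minus loss, 16 over the gain stages, and probes were 2018, 1486, 669, 398 and 966 in the 5 comparisons and 13230 and 11770 over the stages. Print blocks centred gave 5 members over the loss stages. Each experiment alone gave 1 member in the loss average, 401 and 304 probes late minus early, and 7833 and 3116 over the stages; gain minus loss has no value there. Without arrays lacking over 40% of the probes, 128 probes were called in gain late minus early and 3 members over the gain stages. With the maternal covariate, members called were 0, 0 and 1 in the averages and gain minus loss and 1 over the gain stages, and probes 737 and 2262 in the averages and 1386 over the gain stages. Added after seeing the data, the Kr-GFP stages alone gave 0 members and leaving out loss-of-function stage 11 gave 1 member and 404 probes in loss late minus early.

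Replicate numbers did not pair the samples: same-numbered arrays of an experiment correlated at a median of 0.11 in each, over 0.1 in 58 of 112 and 32 of 60 pairs. With the replicate block, members called were 1 in the loss average and 0 in gain minus loss, and probes 2137, 1882 and 766 in the averages and gain minus loss, and 3100 and 5094 over the gain and loss stages. Gain minus loss was then -0.23 for nerfin-1 (adjusted p = 0.633) and -0.51 for elav (0.192). That block gives each number equal weight, though replicate 5 is present at 1 stage of each experiment. In a replicate block with numbers weighted by their arrays, added after seeing the data, these were -0.47 (adjusted p = 0.0293) and -0.44 (0.0488), and members called were 1 in the loss average, where fne had -0.31 (adjusted p = 0.056).

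With 1 array left out, members called were 3 to 3 and 1 to 2 in the gain and loss averages, 0 to 1 and 2 to 3 in gain and loss late minus early, 2 to 2 in gain minus loss, and 4 to 7 and 3 to 6 over the stages; probes were 3648 to 4294, 3479 to 4232, 128 to 295, 704 to 1098, 2086 to 2549, 4036 to 5994 and 6981 to 8347. The cause of these changes was not tested. Ratios without intensities allow no filter on signal over background.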
